A study of Homo sapiens with 36 samples.

Results

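Input RNA of HEK293T cells that expressed YTHDF1-ADAR was compared with input RNA of HEK293T cells that expressed YTHDF3-ADAR, with 3 libraries of each line, 6 of the 36 libraries of the series. The 6 were chosen by their labels alone, as the input libraries of these lines. HEK293T is an established human embryonic kidney line that carries the SV40 large T antigen. Both lines were treated with doxycycline at 1 ug/mL for 24 h, which turned on the fusion protein, and both carry a fusion, so neither is a line without one. Input is total RNA from a part of the lysate that went into RNA immunoprecipitation (RIP) of the endogenous YTHDF proteins. Inputs of another line, YTHDF2-ADAR, had the same treatment and are given beside the pair where they show which of the lines stands apart. The labels do not say whether a line is 1 clone or whether its replicates are separate cultures, and p-values cover only the spread among libraries, which may be technical.

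YTHDF1, YTHDF2 and YTHDF3 are cytoplasmic proteins of one family whose YTH domain holds N6-methyladenosine (m6A), the commonest internal mark of mRNA. They are known for their effects on the decay and translation of marked mRNAs. ADAR enzymes turn adenosine into inosine in double-stranded RNA, and joined to a YTHDF protein the enzyme edits the RNAs that the protein meets. The comparison asks which RNAs differed in level between these lines before any RIP.

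The 9 inputs of the lines had library totals between 20.7 M and 35.3 M counts. Replicate 1 of the YTHDF1-ADAR inputs had the fewest counts and stood apart. Its olfactory receptor genes, which these cells are not known to use, summed to 12.5 CPM (counts per M of the library total, scaled by TMM), against 2.84 to 4.58 CPM in the other 8 inputs. Its small nucleolar RNA share was 0.348 percent of counts against 0.0943 to 0.235 percent, and its mitochondrial mRNA share 0.663 percent against 1.02 to 2.58 percent. Its log2 levels correlated at 0.965 with the other YTHDF1-ADAR inputs, which correlated at 0.986 with each other. A gene was therefore called higher or lower only where edgeR's quasi-likelihood test, after Benjamini-Hochberg adjustment, gave a p under 0.05 with the same sign both with this library and without it. The log2 fold changes below, YTHDF1-ADAR over YTHDF3-ADAR with their standard errors (SE), and the adjusted p-values are those without it, while the CPM values show all 3 libraries in the order of their replicate numbers. All 13 embryonic kidney and HEK293 markers had enough counts to be tested, and their summed level was 2235, 1617 and 2699 CPM in YTHDF1-ADAR inputs against 939.8, 999 and 923 CPM in YTHDF3-ADAR inputs. NEFM and NEFL carried that difference: the other 11 summed to 381, 454 and 458 CPM in YTHDF1-ADAR inputs against 516, 571 and 495 CPM in YTHDF3-ADAR inputs. Of the 13, 2 were called higher and 3 lower, with a median log2 fold change of -0.16. Of the markers of other cell types, 4 of 8 for blood, 4 of 8 for fibroblasts and 2 of 7 for epithelium and hepatocytes were testable, with PTPRC, COL1A2 and KRT5 at 0 counts in all 9 inputs. Their sums were 18.1 to 21.8 against 24.6 to 26.6 CPM for blood, 20.8 to 26.0 against 24.3 to 32.2 CPM for fibroblasts, and 4.66 to 4.81 against 7.81 to 8.62 CPM for epithelium and hepatocytes, in YTHDF1-ADAR and then YTHDF3-ADAR inputs. In such bulk RNA, fewer cells of a kind and less RNA per cell cannot be told apart.

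The genes of the fusions were read first. YTHDF1 (ENSG00000149658, GRCh38 chromosome 20, 63195429 to 63216139) had 496, 633 and 568 CPM in YTHDF1-ADAR inputs against 76.0, 84.3 and 81.8 CPM in YTHDF3-ADAR inputs. YTHDF3 (ENSG00000185728, chromosome 8, 63168553 to 63212786) had 44.3, 51.9 and 45.3 CPM in YTHDF1-ADAR inputs against 106, 92.2 and 118 CPM in YTHDF3-ADAR inputs. Each gene was thus higher in the line named for it, with no overlap between the groups. Counts per gene do not separate reads of a fusion from reads of the native gene. On the log2 scale YTHDF1 was higher by 2.89 ± 0.10 (adjusted p = 2.25e-09) and YTHDF3 lower at -1.12 ± 0.14 (adjusted p = 0.000708). In YTHDF2-ADAR inputs the same genes lay at 73.3 to 76.4 and 39.9 to 54.9 CPM, the levels of the line without the matching fusion.

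ADARB1, which encodes the editing enzyme ADAR2, was also higher where YTHDF3-ADAR was expressed. It had 445, 479 and 472 CPM in YTHDF1-ADAR inputs against 1847, 1783 and 1756 CPM in YTHDF3-ADAR inputs (-1.92 ± 0.10, adjusted p = 3.07e-07; ENSG00000197381, chromosome 21, 45073853 to 45226560). Levels of 47.9 to 51.3 CPM were found in YTHDF2-ADAR inputs. The labels do not say which ADAR enzyme the fusions carry, so native and fusion reads cannot be told apart here either. ADAR, the gene of ADAR1, was lower by a smaller step, with 277, 332 and 312 CPM in YTHDF1-ADAR inputs against 402, 423 and 399 CPM in YTHDF3-ADAR inputs (-0.34 ± 0.10, adjusted p = 0.0405). It lies on chromosome 1, whose genes were lower as a rule, as described further on, and its call was lost in 12 of 20 alternative settings.

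Of 25 m6A writers, erasers and readers, 1 was higher and 1 lower, YTHDF1 and YTHDF3, against 3.7 percent higher and 6.91 percent lower over all protein-coding genes, and the median over the list was -0.01. The methyltransferase subunits METTL3 (0.13 ± 0.09, adjusted p = 0.391), METTL14 (-0.02 ± 0.13, adjusted p = 0.953) and WTAP (0.01 ± 0.09, adjusted p = 0.950) missed the threshold. So did the demethylases FTO (-0.17 ± 0.10, adjusted p = 0.303) and ALKBH5 (-0.29 ± 0.12, adjusted p = 0.155), and YTHDF2 (-0.23 ± 0.10, adjusted p = 0.151). YTHDF2 had 123, 155 and 135 CPM in YTHDF1-ADAR inputs against 164, 168 and 176 CPM in YTHDF3-ADAR inputs, without overlap, and 273 to 276 CPM in YTHDF2-ADAR inputs. Of genes often used as loading controls, ACTB (-0.10 ± 0.13), GAPDH (-0.17 ± 0.11) and HPRT1 (-0.06 ± 0.09) were not called, nor was MYC (-0.21 ± 0.10).

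Among 14865 protein-coding genes tested, 550 (3.7 percent) were called higher and 1027 (6.91 percent) lower in YTHDF1-ADAR inputs, 141 and 230 of them by at least 2-fold. Together these were 1577 genes, or 10.6 percent. In 36.1 percent of protein-coding genes the 3 YTHDF1-ADAR inputs did not overlap the 3 YTHDF3-ADAR inputs. The excess of lower genes depended on which genes entered the fit: with protein-coding genes only, which changes the TMM factors and the genes tested together, the split was 833 higher and 902 lower. The median over protein-coding genes was -0.05 in the fit of all genes, and 0.00 in that of protein-coding genes only. Without YTHDF1-ADAR replicate 2 the count of 1577 fell to 643, without YTHDF1-ADAR replicate 3 to 848, without YTHDF3-ADAR replicate 1 to 461 and without YTHDF3-ADAR replicate 2 to 762. Of all 23818 genes tested, 2140 (8.98 percent) were called, 981 (4.12 percent) higher and 1159 (4.87 percent) lower, and the fit without the library that stood apart called 9.85 percent on its own. Of 8953 genes that do not code for protein, 431 (4.81 percent) were higher and 132 (1.47 percent) lower.

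The highest protein-coding genes at a mean log2 CPM of at least 3 were of several kinds, among them neuronal genes. NPTX2, a pentraxin secreted at synapses (ENSG00000106236, chromosome 7, 98617285 to 98629869), had 458, 342 and 461 CPM in YTHDF1-ADAR inputs against 33.5, 39.0 and 28.7 CPM in YTHDF3-ADAR inputs (3.57 ± 0.15, adjusted p = 3.57e-08). NEFM, the medium neurofilament chain, had 1326, 821 and 1639.9 CPM in YTHDF1-ADAR inputs against 266, 251 and 268 CPM in YTHDF3-ADAR inputs (2.23 ± 0.34, adjusted p = 0.0112). The light chain NEFL had 528, 341 and 601 CPM in YTHDF1-ADAR inputs against 158, 177 and 159 CPM in YTHDF3-ADAR inputs (1.51 ± 0.18, adjusted p = 0.000643). In all of these, replicate 2 was the lowest of the YTHDF1-ADAR inputs. It lay above every YTHDF3-ADAR input, but a lack of overlap was a condition for naming genes by their size of change. An antisense RNA overlaps NEFM and its counts moved alike (2.20), so without strand the pair cannot be told apart.

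MID1, a ubiquitin ligase bound to microtubules, had 248, 154 and 263 CPM in YTHDF1-ADAR inputs against 44.2, 42.9 and 49.0 CPM in YTHDF3-ADAR inputs (2.19 ± 0.17, adjusted p = 2.9e-05). FAM20C, the Golgi kinase that phosphorylates secreted proteins, had 67.1, 35.1 and 74.1 CPM in YTHDF1-ADAR inputs against 7.91, 8.54 and 8.55 CPM in YTHDF3-ADAR inputs (2.71 ± 0.28, adjusted p = 0.00110). IER5, an immediate-early gene, had 332, 214 and 365 CPM in YTHDF1-ADAR inputs against 95.9, 95.1 and 79.7 CPM in YTHDF3-ADAR inputs (1.68 ± 0.18, adjusted p = 0.000403). That no YTHDF1-ADAR input fell into the range of the YTHDF3-ADAR inputs was a condition for naming these genes.

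The homeobox gene HOXD9 (1.33 ± 0.15), the collagen glucosidase PGGHG (1.49 ± 0.22), the F-box gene FBXL16 (1.60 ± 0.21) and ATP1B2, a beta subunit of the sodium pump (1.27 ± 0.19), completed the highest 12 together with YTHDF1 and ASMTL. PGGHG had 47.7 CPM in the library that stood apart and 10.9 and 13.6 CPM in the other YTHDF1-ADAR inputs, against 3.23 to 5.25 CPM in YTHDF3-ADAR inputs, and its call was lost in 4 of 20 alternative settings. Of the 12 highest and 12 lowest genes, 22 kept their call in every alternative setting, NEFM losing it in 1.

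The YTHDF2-ADAR inputs lay with one line for some of these genes and apart from both for others. YTHDF2-ADAR inputs had 28.4 to 35.5 CPM of NPTX2, 44.2 to 48.0 of MID1, 85.2 to 100.5 of IER5 and 4.13 to 4.56 of HOXD9. Against these, YTHDF1-ADAR inputs were higher in NPTX2 (3.65, adjusted p = 1.84e-08) and HOXD9 (1.52, adjusted p = 0.000182), and YTHDF3-ADAR inputs were not called different in NPTX2 (0.09, adjusted p = 0.733) or HOXD9 (0.18, adjusted p = 0.462). For FBXL16 the YTHDF2-ADAR inputs held 40.1 to 51.1 CPM, above the 9.41 to 12.03 CPM of YTHDF3-ADAR inputs (YTHDF3-ADAR over YTHDF2-ADAR -2.05, adjusted p = 6.78e-05). NEFL differed from both lines (YTHDF1-ADAR over YTHDF2-ADAR 0.89, adjusted p = 0.0111; YTHDF3-ADAR over YTHDF2-ADAR -0.62, adjusted p = 0.0274). NEFM lay between them with neither difference called (1.14, adjusted p = 0.0866, and -1.09, adjusted p = 0.0687). ATP1B2 was lower in YTHDF2-ADAR inputs than in either (1.88, adjusted p = 0.000237, and 0.61, adjusted p = 0.0417). The comparisons with YTHDF2-ADAR share libraries with the main one and are not independent of it.

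**Figure D1:**
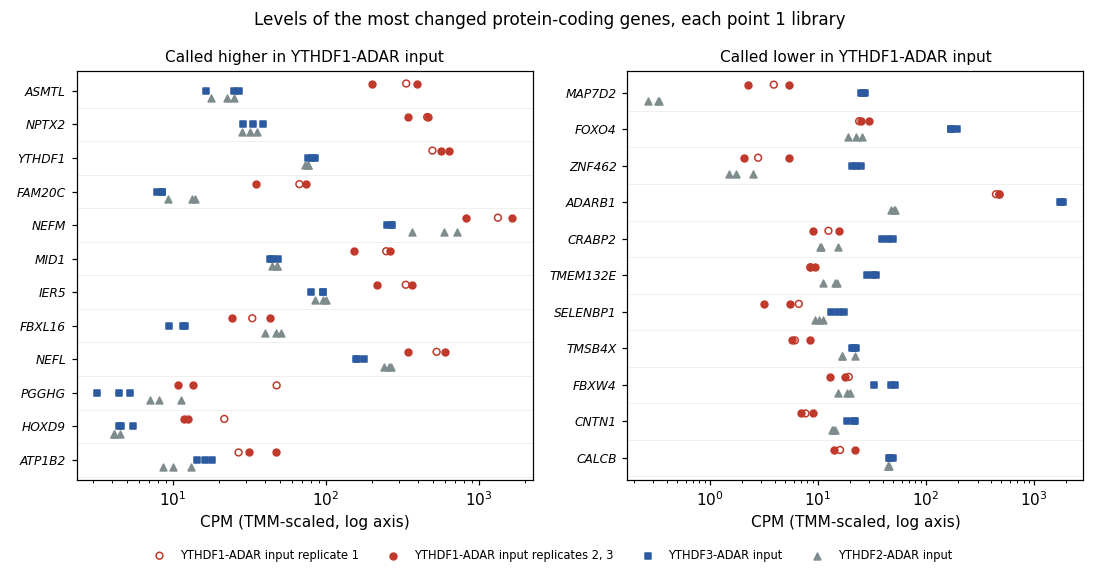
CPM on a log axis of called protein-coding genes among the 12 highest and 12 lowest, each point 1 input library, with YTHDF1-ADAR (replicate 1 open) above YTHDF3-ADAR and YTHDF2-ADAR. The genes were picked so that the YTHDF1-ADAR and YTHDF3-ADAR inputs do not overlap. YTHDF2-ADAR inputs lie with YTHDF3-ADAR for NPTX2 and with YTHDF1-ADAR for FOXO4.

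Lower in YTHDF1-ADAR inputs were a transcription factor, a microtubule protein and genes of signalling and adhesion, among others. FOXO4, a forkhead factor restrained by insulin signalling (ENSG00000184481, chromosome X, 71095851 to 71103532), had 24.1, 29.8 and 25.2 CPM in YTHDF1-ADAR inputs against 169, 193 and 169 CPM in YTHDF3-ADAR inputs (-2.69 ± 0.14, adjusted p = 3.07e-07). MAP7D2, which binds microtubules, had 3.90, 5.44 and 2.27 CPM in YTHDF1-ADAR inputs against 25.0, 26.3 and 27.5 CPM in YTHDF3-ADAR inputs (-2.77 ± 0.26, adjusted p = 0.00013). ZNF462, a zinc finger gene, had 2.79, 5.37 and 2.07 CPM in YTHDF1-ADAR inputs against 20.9, 22.3 and 24.9 CPM in YTHDF3-ADAR inputs (-2.61 ± 0.32, adjusted p = 0.00142). That every YTHDF3-ADAR input exceeded every YTHDF1-ADAR input was again a condition for naming them.

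CALCB, a calcitonin gene-related peptide, had 16.0, 14.1 and 21.8 CPM in YTHDF1-ADAR inputs against 49.1, 46.7 and 45.7 CPM in YTHDF3-ADAR inputs (-1.40 ± 0.15, adjusted p = 0.0002). The actin-binding thymosin TMSB4X had 6.12, 5.79 and 8.36 CPM in YTHDF1-ADAR inputs against 22.6, 20.5 and 21.4 CPM in YTHDF3-ADAR inputs (-1.61 ± 0.18, adjusted p = 0.000223). The retinoic acid carrier CRABP2 (-1.84 ± 0.24), the selenium-binding protein SELENBP1 (-1.82 ± 0.21), TMEM132E (-1.84 ± 0.15), FBXW4 (-1.51 ± 0.20) and the cell adhesion gene CNTN1 (-1.40 ± 0.14) fell as well. Several lie in stretches with negative medians, described further on. CRABP2 and SELENBP1 are on chromosome 1 (median -0.32). TMEM132E is in the first 50 Mb of chromosome 17 (median -0.18), and CALCB within 10 to 40 Mb of chromosome 11 (median -0.38). The other lower genes named here lie elsewhere.

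Among the lower genes the YTHDF2-ADAR inputs also lay on either side. FOXO4 lay at 19.1 to 25.7 CPM in YTHDF2-ADAR inputs, where YTHDF3-ADAR over YTHDF2-ADAR gave 2.99 (adjusted p = 1.65e-08) and YTHDF1-ADAR over YTHDF2-ADAR 0.30 (adjusted p = 0.164). CRABP2 followed the same order, at 10.4 to 15.4 CPM in YTHDF2-ADAR inputs. CALCB, at 44.3 to 45.8 CPM, and TMSB4X, at 16.6 to 21.96 CPM, lay in YTHDF2-ADAR inputs near the YTHDF3-ADAR level, YTHDF1-ADAR being lower than YTHDF2-ADAR by -1.32 (adjusted p = 0.000344) and -1.38 (adjusted p = 0.000665). MAP7D2 differed between all 3 lines, with 0.268 to 0.335 CPM in YTHDF2-ADAR inputs.

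Genes with a mean log2 CPM between 0 and 3 showed larger steps, many of them between a low level and almost none. P2RY8, a receptor of the purinergic family, had 12.02, 6.68 and 8.96 CPM in YTHDF1-ADAR inputs against 0.132, 0.137 and 0.0687 CPM in YTHDF3-ADAR inputs (6.04 ± 0.34, adjusted p = 3.49e-07). The growth factor FGF18 had 4.97, 3.18 and 3.21 CPM in YTHDF1-ADAR inputs against 0.165, 0.328 and 0.137 CPM in YTHDF3-ADAR inputs (3.86 ± 0.38, adjusted p = 0.000121). Both were near 0 in YTHDF2-ADAR inputs as well, at 0.0744 to 0.201 and 0.120 to 0.298 CPM. FGF18 shares exons with an unnamed gene whose counts moved with it (3.76).

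ITPKB, an inositol trisphosphate kinase, had 5.81, 3.87 and 4.68 CPM in YTHDF1-ADAR inputs against 0.231, 0.219 and 0.103 CPM in YTHDF3-ADAR inputs (4.48 ± 0.29, adjusted p = 1.72e-06). The inositol phosphatase INPP5D, best known from blood cells, had 3.81, 2.23 and 5.65 CPM in YTHDF1-ADAR inputs against 0.362, 0.301 and 0.378 CPM in YTHDF3-ADAR inputs (3.50 ± 0.41, adjusted p = 0.000529). YTHDF2-ADAR inputs held 3.38 to 3.79 and 4.62 to 7.36 CPM of these, close to YTHDF1-ADAR (YTHDF1-ADAR over YTHDF2-ADAR 0.28, adjusted p = 0.459, and -0.50, adjusted p = 0.373). The plasma membrane calcium pump gene ATP2B3 (3.03 ± 0.53) and EDA2R (3.39 ± 0.27) were the other two.

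On the lower side at this level, 3 of the 6 genes lie on the X chromosome. Of all protein-coding genes on X, 6.82 percent were called lower, near the 6.91 percent over all chromosomes. IGSF1, an immunoglobulin superfamily gene, had 0.355, 0.205 and 0.435 CPM in YTHDF1-ADAR inputs against 7.64, 7.42 and 6.18 CPM in YTHDF3-ADAR inputs (-4.45 ± 0.37, adjusted p = 2.43e-05). The sialyltransferase gene ST6GAL2 had 0.443, 0.445 and 0.435 CPM in YTHDF1-ADAR inputs against 8.86, 7.25 and 8.55 CPM in YTHDF3-ADAR inputs (-4.21 ± 0.25, adjusted p = 5.28e-07). FGF13 (-3.85 ± 0.36), AFF2 (-3.45 ± 0.37), the netrin NTNG1 (-2.99 ± 0.31) and SETBP1 (-2.76 ± 0.34) were lower too. For these 6 genes YTHDF2-ADAR inputs lay at 0.101 to 1.71 CPM, below the 3.26 to 8.86 CPM of YTHDF3-ADAR inputs.

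A stretch of the pseudoautosomal region of X, the part shared with Y, held a run of higher genes. Its bounds were drawn after the values were seen, so it is given as a description, and genes that failed the filter on low counts are left out. Between 1187549 and 1537185 on X, CRLF2 (3.47 ± 0.72), CSF2RA (2.11 ± 0.52), IL3RA (1.76 ± 0.35), LINC00106 (1.58 ± 0.30), ASMTL-AS1 (3.34 ± 0.24), ASMTL (3.69 ± 0.33) and P2RY8 were called higher. ASMTL, related to an enzyme of melatonin synthesis, had 334, 201 and 394 CPM in YTHDF1-ADAR inputs against 25.3, 27.0 and 16.6 CPM in YTHDF3-ADAR inputs (adjusted p = 0.00180). ASMTL-AS1 overlaps it on the other strand, so their counts cannot be told apart. SLC25A6, a mitochondrial ADP/ATP carrier inside the stretch, was not called, with 242, 283 and 353 CPM in YTHDF1-ADAR inputs against 391, 404 and 321 CPM in YTHDF3-ADAR inputs (-0.23 ± 0.15, adjusted p = 0.355). Beyond its ends, PPP2R3B (-0.07 ± 0.18) and AKAP17A (0.15 ± 0.14) were not called either. Some of the called genes were at low levels. CRLF2 had 0.709, 0.377 and 0.635 CPM in YTHDF1-ADAR inputs against 0.0659, 0.0274 and 0.0343 CPM in YTHDF3-ADAR inputs. CSF2RA and IL3RA reached at most 1.17 and 3.33 CPM in YTHDF1-ADAR inputs, and 0.240 and 0.461 CPM in YTHDF3-ADAR inputs.

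Genes that p53 is known to switch on were higher in YTHDF1-ADAR inputs almost throughout a list of 22. The transcription factor p53 answers DNA damage and other stress by raising genes for cell cycle arrest, apoptosis, DNA repair and its own control, and the large T antigen of HEK293T cells binds p53. Of the 22, 18 were called higher and 0 lower, against 3.7 percent higher over all protein-coding genes, with a median of 0.63 against -0.05. All 22 had a positive log2 fold change, and in 20 the YTHDF1-ADAR inputs did not overlap the YTHDF3-ADAR inputs, against 36.1 percent of all protein-coding genes. Outside chromosomes 1 and 8, which shifted as wholes, 12 of 16 were higher (median 0.58). Like the lists further on, this one was chosen with earlier results of these data known, so its counts are a description.

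Short DNA stretches that p53 is known to bind are shown first, because these genes moved together. RefSeq promoters (GRCh38.p14, 250 bases before to 50 after the start) were matched by symbol for 18 of the 22 genes, and 3 of the 18 (16.7 percent) held the 10-base p53 half-site by its consensus, searched on both strands, against 6.63 percent of all 35116 promoters. Only DDB2 held 2 half-sites spaced as a full site, with at most 13 bases between them, which 10 promoters (0.0285 percent) did. Capitals mark the half-sites in the promoters of DDB2 (chr11:47214724-47215023, plus strand), AEN (chr15:88621090-88621389, plus strand) and SESN1 (chr6:109008939-109009238, minus strand). A match is a description of these letters, and no match says only that they are not in this window.
DDB2: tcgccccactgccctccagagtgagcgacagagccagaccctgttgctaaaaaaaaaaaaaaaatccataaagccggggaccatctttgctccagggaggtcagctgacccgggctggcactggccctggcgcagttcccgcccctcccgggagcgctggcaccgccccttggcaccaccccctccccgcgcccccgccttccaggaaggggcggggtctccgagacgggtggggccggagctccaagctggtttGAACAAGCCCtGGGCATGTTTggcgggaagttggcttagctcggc
AEN: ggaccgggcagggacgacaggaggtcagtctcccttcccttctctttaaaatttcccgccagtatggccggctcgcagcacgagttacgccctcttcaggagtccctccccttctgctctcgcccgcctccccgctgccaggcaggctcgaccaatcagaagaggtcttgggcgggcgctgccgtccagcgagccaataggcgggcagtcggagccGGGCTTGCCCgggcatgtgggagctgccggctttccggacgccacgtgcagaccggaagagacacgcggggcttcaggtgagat
SESN1: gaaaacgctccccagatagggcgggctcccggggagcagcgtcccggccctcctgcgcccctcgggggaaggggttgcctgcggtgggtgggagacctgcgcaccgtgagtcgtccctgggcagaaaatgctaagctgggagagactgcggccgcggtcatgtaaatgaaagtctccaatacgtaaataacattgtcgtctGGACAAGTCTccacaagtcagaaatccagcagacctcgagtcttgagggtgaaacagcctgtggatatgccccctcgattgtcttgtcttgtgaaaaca

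For cell cycle arrest, CDKN1A, the p21 inhibitor of cyclin-dependent kinases (ENSG00000124762, chromosome 6, 36676460 to 36687337), had 36.3, 31.6 and 50.5 CPM in YTHDF1-ADAR inputs against 18.8, 18.5 and 16.7 CPM in YTHDF3-ADAR inputs (1.19 ± 0.16, adjusted p = 0.000845). BTG2, an antiproliferative gene, had 34.5, 32.8 and 46.0 CPM in YTHDF1-ADAR inputs against 22.7, 21.5 and 19.0 CPM in YTHDF3-ADAR inputs (0.90 ± 0.14, adjusted p = 0.00278). PLK3 (0.74 ± 0.18) was higher as well. A lncRNA, DINOL, overlaps CDKN1A at far fewer counts.

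For apoptosis, the death receptor TNFRSF10B had 131, 115 and 158 CPM in YTHDF1-ADAR inputs against 61.1, 64.7 and 61.6 CPM in YTHDF3-ADAR inputs (1.12 ± 0.12, adjusted p = 0.0002). PHLDA3, which restrains AKT, had 29.4, 27.9 and 40.6 CPM in YTHDF1-ADAR inputs against 15.8, 16.1 and 14.1 CPM in YTHDF3-ADAR inputs (1.15 ± 0.15, adjusted p = 0.000784). BAX, which opens the outer mitochondrial membrane, had 61.1, 69.1 and 78.1 CPM in YTHDF1-ADAR inputs against 49.0, 47.6 and 52.7 CPM in YTHDF3-ADAR inputs (0.56 ± 0.10, adjusted p = 0.00549). These groups did not overlap. TP53INP1 (1.19 ± 0.23), AEN (0.53 ± 0.11), FAS (0.63 ± 0.17) and ZMAT3 (0.60 ± 0.12) rose, although FAS shares counts with ACTA2 on the other strand. BBC3, at 0.36 ± 0.20 (adjusted p = 0.281), was not called.

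Among genes of repair and metabolism, DDB2, which recognises damage from ultraviolet light, had 26.8, 20.03 and 22.9 CPM in YTHDF1-ADAR inputs against 12.1, 12.3 and 11.7 CPM in YTHDF3-ADAR inputs (0.83 ± 0.11, adjusted p = 0.000938). The translesion polymerase POLH (0.50 ± 0.10), the ribonucleotide reductase subunit RRM2B (0.82 ± 0.17), ferredoxin reductase FDXR (0.87 ± 0.19), SESN1 (0.60 ± 0.11) and TIGAR (0.41 ± 0.12) were higher. XPC (0.17 ± 0.11, adjusted p = 0.343) and TP53I3 (0.51 ± 0.17, adjusted p = 0.0771) missed the threshold, and SPATA18 (0.57 ± 0.16) passed it only without the library that stood apart. MDM2, the ligase that degrades p53 and is raised by it, had 194, 247 and 231 CPM in YTHDF1-ADAR inputs against 148, 137 and 176 CPM in YTHDF3-ADAR inputs (0.64 ± 0.13, adjusted p = 0.00878). GDF15, a secreted stress signal, had 1.55, 0.445 and 2.88 CPM in YTHDF1-ADAR inputs against 0.231, 0.192 and 0.137 CPM in YTHDF3-ADAR inputs (3.12 ± 0.66, adjusted p = 0.0135).

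**Figure D2:**
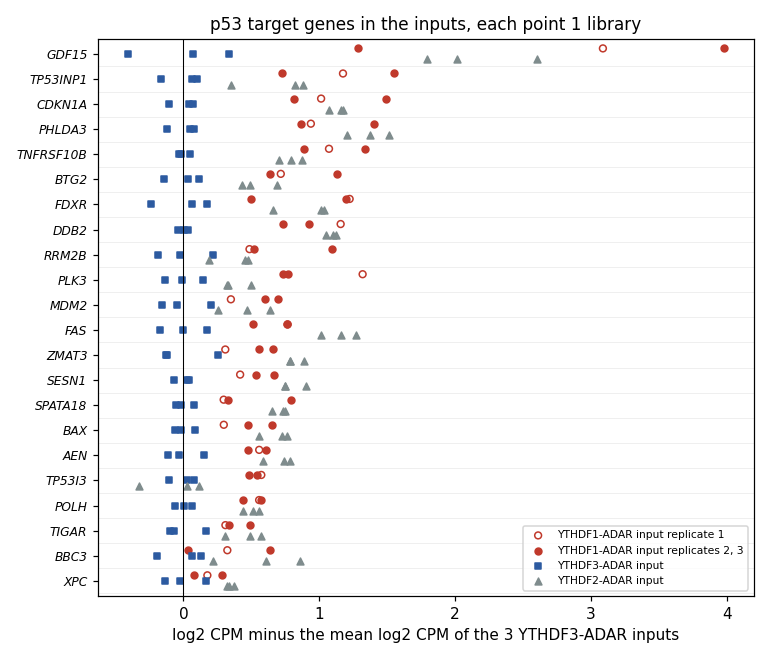
Level of each of the 22 p53 target genes in each input, as log2 CPM minus the mean log2 CPM of the 3 YTHDF3-ADAR inputs, each point 1 library, with YTHDF1-ADAR (replicate 1 open) above YTHDF3-ADAR and YTHDF2-ADAR. YTHDF1-ADAR inputs lie right of 0 and mostly level with YTHDF2-ADAR inputs, as for CDKN1A at 31.6 to 50.5 CPM in YTHDF1-ADAR and 37.7 to 40.6 CPM in YTHDF2-ADAR inputs.

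The YTHDF2-ADAR inputs lay with YTHDF1-ADAR for this list. In YTHDF1-ADAR over YTHDF2-ADAR 0 of the 22 genes were called higher and 0 lower (median -0.03), against 4.65 and 4.9 percent of protein-coding genes (9.55 percent in all). 7 of the 22 had an unadjusted edgeR p under 0.05 there, beside 4105 of all 14865 protein-coding genes, a similar share. No other tool was run on that comparison. In YTHDF3-ADAR over YTHDF2-ADAR 17 were called lower and 0 higher (median -0.69), against 5.89 and 10.4 percent (16.3 percent in all). The list was therefore lower in the YTHDF3-ADAR inputs than in those of either other line, and the comparisons share libraries. The count of 18 fell to 10 without YTHDF1-ADAR replicate 3, to 8 without YTHDF3-ADAR replicate 1 and to 10 without YTHDF3-ADAR replicate 2, with 0 lower in every setting and medians of 0.56 to 0.74.

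EDA2R and MIR34AHG, named by their size of change and outside the list, are also described as p53-responsive. EDA2R, a receptor of the tumor necrosis factor family (ENSG00000131080, chromosome X, 66595637 to 66639298), had 2.08, 4.25 and 3.48 CPM in YTHDF1-ADAR inputs against 0.395, 0.383 and 0.309 CPM in YTHDF3-ADAR inputs (3.39 ± 0.27, adjusted p = 2.01e-05). MIR34AHG, the host transcript of miR-34a on chromosome 1 (9148011 to 9198906), had 39.3, 19.99 and 35.0 CPM in YTHDF1-ADAR inputs against 9.03, 8.73 and 12.9 CPM in YTHDF3-ADAR inputs (1.43 ± 0.22, adjusted p = 0.00338). YTHDF2-ADAR inputs had 2.09 to 2.88 and 18.5 to 22.4 CPM of them. Mature miRNAs are not measured by these libraries; the mature sequence from RefSeq (GRCh38.p14, chr1:9151735-9151756, minus strand) is shown to say which miRNA the host carries, with its seed, bases 2 to 8, in capitals.
hsa-miR-34a-5p: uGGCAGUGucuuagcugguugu

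Clustered protocadherins, adhesion genes arrayed on chromosome 5 that neurons use to tell themselves apart, were called higher in part. Of 29 tested among 53 in the table, 12 were called higher and 0 lower, against 3.7 percent higher over all protein-coding genes, with medians of 0.73 and -0.05. The PCDHB genes named next were at very low levels. PCDHB2 had 0.931, 0.924 and 1.14 CPM in YTHDF1-ADAR inputs against 0.165, 0.0274 and 0.137 CPM in YTHDF3-ADAR inputs (3.24 ± 0.49, adjusted p = 0.00211). PCDHB13 had 0.310, 0.308 and 0.468 CPM in YTHDF1-ADAR inputs against 0, 0.0274 and 0.0343 CPM in YTHDF3-ADAR inputs. PCDHB8, PCDHB12, PCDHB15 and PCDHB16 were also called, all under 1 CPM in each input of both lines, and the members that failed the filter on low counts are not in this count, so nothing is read from it. The 22 PCDHG genes tested share their last exons, so their counts are not independent. Their means were 3.61 to 6.19 CPM in YTHDF1-ADAR inputs, 2.02 to 3.76 CPM in YTHDF3-ADAR inputs and 8.25 to 12.8 CPM in YTHDF2-ADAR inputs. The count of 12 fell to 2 without YTHDF1-ADAR replicate 3, to 6, 4 and 5 without replicates 1, 2 and 3 of YTHDF3-ADAR, and was 28 in a fit of protein-coding genes only and 30 with no filter on low counts.

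Where called genes lie on the chromosomes was far from even. On chromosome 1, 384 of 1500 protein-coding genes (25.6 percent) were lower and 22 (1.47 percent) higher, against 6.91 and 3.7 percent over all, with a median of -0.32. On chromosome 8, 81 of 489 (16.6 percent) were higher and 10 (2.04 percent) lower, with a median of 0.29. Genes outside both chromosomes numbered 447 higher and 633 lower of 12876 (median -0.03). All 24 bins of 10 Mb with genes on chromosome 1 had a negative median, and all 15 on chromosome 8 a positive one. CKS1B, a cell cycle regulator on chromosome 1, had 37.3, 50.2 and 58.4 CPM in YTHDF1-ADAR inputs against 106, 99.0 and 95.3 CPM in YTHDF3-ADAR inputs (-0.89 ± 0.12, adjusted p = 0.00111). AGO2, the slicing Argonaute on chromosome 8, had 232, 234 and 244 CPM in YTHDF1-ADAR inputs against 169.8, 156 and 167 CPM in YTHDF3-ADAR inputs (0.54 ± 0.09, adjusted p = 0.00354).

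Per library, the median of chromosome 1 genes relative to the YTHDF3-ADAR mean was -0.35, -0.31 and -0.29 in YTHDF1-ADAR inputs and -0.28, -0.27 and -0.28 in YTHDF2-ADAR inputs, while the single YTHDF3-ADAR inputs lay at 0.00 to 0.01. Chromosome 1 genes were thus higher in YTHDF3-ADAR inputs than in both other lines by about the same step. For chromosome 8 the medians were 0.25, 0.18 and 0.37 in YTHDF1-ADAR inputs and 0.08, 0.11 and 0.13 in YTHDF2-ADAR inputs. Chromosome 22 genes were lower in both, at -0.10, -0.13 and -0.20 in YTHDF1-ADAR inputs and -0.22, -0.23 and -0.37 in YTHDF2-ADAR inputs, with 40 of 363 (11 percent) called lower. The medians kept their sign in every setting, from -0.37 to -0.27 for chromosome 1 and from 0.17 to 0.37 for chromosome 8. The count of 384 fell to 112 and 208 without YTHDF1-ADAR replicates 2 and 3, and to 113 and 210 without YTHDF3-ADAR replicates 1 and 2. That of 81 fell to 14 without YTHDF1-ADAR replicate 3, and to 20 and 37 without YTHDF3-ADAR replicates 1 and 2.

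On chromosomes 3, 6, 9, 11 and 17 a part of the chromosome shifted and the rest lay near 0. These bounds were drawn after the values were seen, so they are given as a description. The first 120 Mb of chromosome 3 held 60 lower and 4 higher genes of 486 (median -0.20), against 4 lower and 10 higher of 334 in the rest (median 0.00). From 10 to 40 Mb of chromosome 11 there were 36 lower and 0 higher genes of 109 (median -0.38), against 30 and 18 of 714 outside (median -0.01). The first 50 Mb of chromosome 17 held 68 lower and 15 higher of 604 (median -0.18), against 4 and 10 of 313 in the rest (median 0.00). From 10 to 40 Mb of chromosome 9 there were 21 lower and 3 higher genes of 125 (median -0.30), against 17 and 13 of 481 outside (median 0.04). The first 20 Mb of chromosome 6 held 12 lower and 3 higher of 83 (median -0.23), against 33 and 22 of 722 in the rest (median -0.01).

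**Figure D3:**
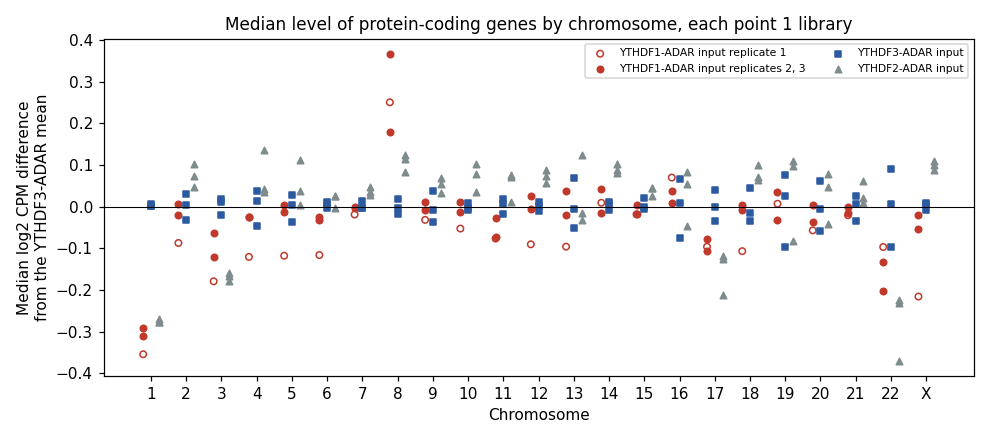
Median over protein-coding genes of each chromosome of log2 CPM minus the YTHDF3-ADAR mean, each point 1 input library, with YTHDF1-ADAR (replicate 1 open) left of YTHDF3-ADAR and YTHDF2-ADAR. Chromosome 1 lies at -0.35 to -0.29 in YTHDF1-ADAR inputs and chromosome 8 at 0.18 to 0.37, while most other chromosomes lie near 0.

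The counts in the lists that follow stand against 3.7 percent higher and 6.91 percent lower over all protein-coding genes, and 3.47 and 4.92 percent outside chromosomes 1 and 8. Of 84 cytosolic ribosomal protein genes 17 were lower and 1 higher (median -0.26), and outside chromosomes 1 and 8 these were 12 and 1 of 75. RPL11, which also binds MDM2, had 123, 228 and 211 CPM in YTHDF1-ADAR inputs against 377, 308 and 403 CPM in YTHDF3-ADAR inputs (-0.72 ± 0.13, adjusted p = 0.00425). RPS13 had 154, 202 and 228 CPM in YTHDF1-ADAR inputs against 352, 328 and 367 CPM in YTHDF3-ADAR inputs (-0.70 ± 0.12, adjusted p = 0.00352). In both the library that stood apart was the lowest. RPL11 lies on chromosome 1 (median -0.32) and RPS13 within 10 to 40 Mb of chromosome 11 (median -0.38), described above. The 1 higher member was RPS27L (0.83 ± 0.17), a relative of RPS27 that p53 is known to raise. The median of the list ran from -0.39 to -0.14 over the settings.

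Nuclear-encoded oxidative phosphorylation genes split 10 lower and 0 higher of 92 (median -0.14) and mitochondrial ribosomal proteins 9 lower and 0 higher of 78 (median -0.16). Outside chromosomes 1 and 8 these counts were 4 of 79 and 3 of 67, close to the 4.92 percent lower of all protein-coding genes there. SDHB, a subunit of succinate dehydrogenase on chromosome 1, had 35.2, 41.8 and 48.0 CPM in YTHDF1-ADAR inputs against 74.1, 73.4 and 73.4 CPM in YTHDF3-ADAR inputs (-0.72 ± 0.10, adjusted p = 0.00111). The G2/M genes, of which 7 of 52 were lower and 0 higher, had 2 of 41 lower outside chromosomes 1 and 8, and their median was -0.05, that of all protein-coding genes.

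Of 28 genes of sterol and fatty acid synthesis 4 were lower and 0 higher (median -0.24), against 6.91 percent lower over all. INSIG1, which holds back the sterol-sensing factors and is itself raised by them, had 112, 135 and 145 CPM in YTHDF1-ADAR inputs against 235, 226 and 219 CPM in YTHDF3-ADAR inputs (-0.70 ± 0.10, adjusted p = 0.00180). IDI1 (-0.54 ± 0.11), MSMO1 (-0.58 ± 0.11) and FDPS (-0.42 ± 0.11) followed. Of 25 interferon-stimulated and RNA-sensing genes 4 were lower and 1 higher (median -0.07), against the same 6.91 percent lower and 3.7 percent higher. The double-stranded RNA sensor IFIH1 had 0.310, 0.274 and 0.234 CPM in YTHDF1-ADAR inputs against 1.48, 1.45 and 0.893 CPM in YTHDF3-ADAR inputs (-2.32 ± 0.42, adjusted p = 0.00513) and IFI44L lay at -2.41 ± 0.44 and USP18 at -0.58 ± 0.12. ISG20, an exonuclease, was higher (1.30 ± 0.34).

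Against 3.7 percent higher and 6.91 percent lower over all, immediate-early genes split 5 higher and 0 lower of 27 (median 0.27), with IER5, EGR3 (1.43 ± 0.42), BTG2, FOSL2 (0.74 ± 0.16) and CCN1 (0.57 ± 0.13). Of these, IER5, BTG2 and CCN1 lie on chromosome 1, where 1.47 percent of protein-coding genes were higher and 25.6 percent lower. They were thus called against the direction of most genes there. Outside chromosomes 1 and 8 the count was 1 of 18, against 3.47 percent higher over all genes outside them. Neuronal and synaptic genes did not move one way: 3 of 35 were higher, the neurofilaments and NPTX2, and 4 lower, INA (-0.59 ± 0.14), TUBB3 (-0.69 ± 0.14), SYT14 (-1.05 ± 0.24) and CALCB. HOX genes split 6 higher and 2 lower of 38, with HOXD9, HOXD10 (0.55 ± 0.12) and HOXD11 (0.45 ± 0.11) among the higher and HOXC12 (-1.83 ± 0.24) the lowest. ZNF zinc finger genes split 41 higher and 15 lower of 438 (median 0.11). Small structured noncoding RNAs split 19 higher and 0 lower of 391, a share near the 4.81 percent higher of all noncoding genes. Their median was 0.54, against 0.14 over all noncoding genes, though members that are copies share counts. Their summed level was 60623, 153930.0 and 140230.0 CPM in YTHDF1-ADAR inputs against 105220.0, 89948 and 102020.0 CPM in YTHDF3-ADAR inputs, lowest in the library that stood apart. YTHDF2-ADAR inputs had 146930, 145690 and 81325 CPM, so the sum also varied widely within that line.

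RIP libraries of the same lines were set beside the inputs, since they are other libraries from the same lysates. In YTHDF2 RIP, YTHDF1-ADAR over YTHDF3-ADAR called 8.51 percent of 14705 protein-coding genes higher and 15.7 percent lower, and in YTHDF3 RIP 6.01 and 11.4 percent of 14751. Of 543 input-higher genes tested in YTHDF2 RIP, 540 had the same sign and 397 were called higher there, with 0 called lower. Of 1020 input-lower genes 1008 had the same sign and 743 were called lower, with 0 called higher. In YTHDF3 RIP the same sign was found for 544 of 546 and 1007 of 1019 genes, with 359 and 675 called the same way and 0 the other way. How many of all tested genes kept their sign was not counted. Medians in YTHDF2 RIP were 0.68 over input-higher and -0.78 over input-lower genes, against -0.09 over all protein-coding genes. In YTHDF3 RIP these medians were 0.68, -0.72 and -0.09. A RIP library carries the RNA level and its recovery together, and their parts cannot be told apart here. Counts of protein-coding calls moved with single libraries. For YTHDF1-ADAR against YTHDF3-ADAR in YTHDF2 RIP the 3567 calls fell to 2097 and 1957 without YTHDF3-ADAR replicates 1 and 2. For YTHDF1-ADAR against YTHDF3-ADAR in YTHDF3 RIP the 2568 calls fell to 1191 and 1026 without YTHDF1-ADAR replicates 1 and 2, and to 1471 and 1247 without YTHDF3-ADAR replicates 2 and 3.

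**Figure D4:**
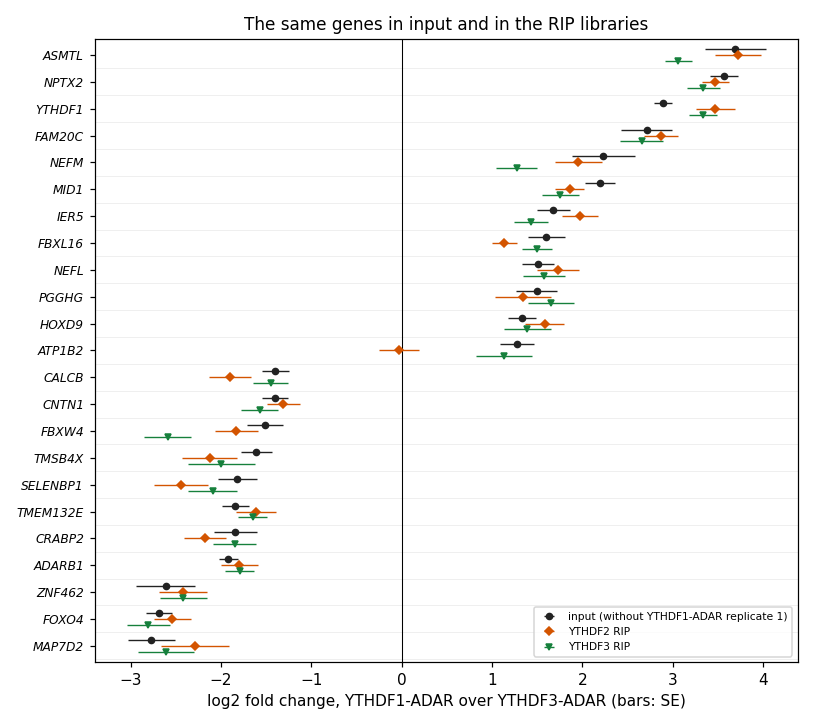
Log2 fold change, YTHDF1-ADAR over YTHDF3-ADAR, with SE bars for protein-coding genes among the 12 highest and 12 lowest in input (without YTHDF1-ADAR replicate 1), YTHDF2 RIP and YTHDF3 RIP. The 3 values lie on the same side of 0 for every gene shown but ATP1B2, which was 1.27 in input and -0.03 in YTHDF2 RIP.

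Most of the named genes kept their size in the RIPs. NPTX2 was 3.47 ± 0.15 in YTHDF2 RIP and 3.34 ± 0.18 in YTHDF3 RIP, and FOXO4 -2.54 ± 0.21 and -2.81 ± 0.24. ATP1B2 differed, at -0.03 ± 0.22 in YTHDF2 RIP and 1.13 ± 0.31 in YTHDF3 RIP. The p53 targets were called higher for 9 of 22 in YTHDF2 RIP (median 0.41) and 13 of 22 in YTHDF3 RIP (median 0.61), and 0 were lower in either. CDKN1A was 0.78 ± 0.14 and 1.02 ± 0.14 in them. The chromosome medians held in both RIPs, at -0.36 and -0.37 for chromosome 1 and 0.19 and 0.18 for chromosome 8 in YTHDF2 RIP and then YTHDF3 RIP, against -0.09 over all protein-coding genes.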

How the data were processed

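RNA counts of the inputs of YTHDF1-ADAR, YTHDF3-ADAR and YTHDF2-ADAR HEK293T cells were analysed (3 libraries each), with the YTHDF2 RIP and YTHDF3 RIP libraries of the same lines beside them. Libraries were made after DNase treatment and rRNA depletion with a directional kit, per the labels' protocols. Per the submitters' processing notes, the authors used STAR 2.7.7, featureCounts 2.0.1 and DESeq2 with GRCh38/hg38. Per the file headers, the deposited counts per gene (Ensembl release 102 plus a rat Apobec1 row) were made without strand and include reads with several places or genes, so overlapping genes and copies share counts. The rat row, with 0 to 6 counts in each input, was left out. The authors' deposited DESeq2 table, which holds a mean signal, log2 fold changes and p-values, gave symbols and gene types only. The authors' editing tables were not used. No count column was left out (0 not used).

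Counts were scaled by TMM and fitted by line in edgeR 4.0.16 (R 4.3.3; filterByExpr, robust glmQLFit, glmQLFTest), once with all 9 inputs and once with 8, without YTHDF1-ADAR replicate 1. Of 60675 genes 23818 were tested in both, and p-values were adjusted over all tested genes. Called means adjusted p under 0.05 with the same sign in both fits. RIP libraries were fitted apart, 1 fit per RIP. The SE is that of the log2 fold change. Input totals lay between 20.7 M and 35.3 M counts, and the SE of a protein-coding gene had a median of 0.14. Named genes were the 12 highest and 12 lowest called protein-coding genes at mean log2 CPM of at least 3 whose libraries do not overlap, 6 and 6 between 0 and 3, 4 and 4 noncoding genes, up to 4 called genes of smallest p per list (36 lists), and 14 genes always read. Some of these genes are not reported here. Members and lists were chosen with earlier results of these data known. Medians per chromosome used a pseudocount of 0.5 CPM. Alternatives included DESeq2 1.42.0, limma 3.58.1 voom, other scalings and filters, all 36 libraries, a replicate block and each library left out. The scripts were tested on simulated data.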

Additional observations from a re-analysis of the deposited data

How the results depend on the processing

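Of 148 genes read by rule under up to 20 other settings, giving 2921 values, 2595 kept direction and call, 324 kept direction but lost the call, 2 gained it and 0 changed direction. Genes called in all were 2140, and 4684 with limma and sample weights, 3531 with all 9 inputs alone, 1054 with all 36 libraries and 1274 with a replicate block; with any 1 input left out they ran from 593 to 2376. For protein-coding genes, 1577, these values were 3191, 2401, 687 and 981 (replicate block), and 461 to 1754 with 1 input left out. The p53 targets called higher, 18, were 10 with all 36 libraries and 8 to 19 with 1 input left out. Clustered protocadherins, 12, were 28 with protein-coding genes only, 30 with no filter, 23 with the DESeq2 Wald test, 4 with 2 lines only, 29 with all 9 inputs and 7 with the replicate block, and 2 to 14 with 1 input left out. Chromosome 1 genes called lower, 384, were 641 with limma and 146 with all 36 libraries, and 112 to 429 with 1 input left out. Chromosome 8 genes called higher, 81, were 122 with protein-coding genes only, 170 with limma, 25 with all 36 libraries and 52 with the replicate block, and 14 to 95 with 1 input left out. Calls in YTHDF2 RIP ran from 1957 to 4388 and in YTHDF3 RIP from 1026 to 3571 with 1 library left out. The cause of these moves was not tested, and a fit with 1 library left out also has fewer libraries. Without YTHDF1-ADAR input replicate 2 or 3, that line keeps a single library in the smaller fit, which is assumed to vary like the others. The lowest counts of input genes, 593 in all and 461 protein-coding, came without YTHDF3-ADAR replicate 1, where no further YTHDF1-ADAR library was lost. YTHDF1-ADAR and YTHDF3-ADAR inputs with the same number did not deviate together (correlations -0.06, -0.27 and -0.05). These deviations include the library that stood apart and leave out the YTHDF2-ADAR inputs. They therefore cannot decide whether the numbers mark a shared batch, which the labels do not say. Alternatives for the lists, chromosomes and RIPs were added after seeing the data. Low depth limits genes under 1 CPM, such as the PCDHB genes.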

Other observations

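Some lists not described above held single genes with clear steps. LAMC3, a laminin chain, had 10.8, 4.52 and 8.46 CPM in YTHDF1-ADAR inputs against 1.58, 1.59 and 1.17 CPM in YTHDF3-ADAR inputs (2.15 ± 0.33, edgeR adjusted p = 0.00302), and 5.39 to 10.95 CPM in YTHDF2-ADAR inputs. SLC2A3, a glucose transporter, had 1.15, 1.81 and 2.47 CPM in YTHDF1-ADAR inputs against 0.593, 0.465 and 0.652 CPM in YTHDF3-ADAR inputs (1.91 ± 0.30, edgeR adjusted p = 0.00242). Its YTHDF2-ADAR level was higher than either, at 4.57 to 7.06 CPM. LGR5, a Wnt pathway receptor, had 5.41, 6.44 and 4.85 CPM in YTHDF1-ADAR inputs against 14.8, 11.7 and 16.2 CPM in YTHDF3-ADAR inputs (-1.34 ± 0.21, edgeR adjusted p = 0.00231). The imprinted growth factor gene IGF2 had 7.67, 6.71 and 10.2 CPM in YTHDF1-ADAR inputs against 16.8, 16.8 and 16.6 CPM in YTHDF3-ADAR inputs (-0.99 ± 0.17, edgeR adjusted p = 0.00424), and its difference in YTHDF2 RIP was -2.68.

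The lncRNA PVT1, next to MYC on chromosome 8, had 78.1, 24.5 and 23.4 CPM in YTHDF1-ADAR inputs against 9.03, 8.81 and 9.38 CPM in YTHDF3-ADAR inputs (1.40 ± 0.12, edgeR adjusted p = 2.9e-05), while MYC was not called (-0.21 ± 0.10). The first of these values is from the library that stood apart. Its call was lost in 3 alternative settings.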
